A study of Mus musculus with 18 samples.

Results

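The genes described here are 10 components and targets of canonical Wnt signalling that feed back on the pathway: Axin2, Nkd1, Notum, Lgr4, Lgr5, Rnf43, Znrf3, Tcf7, Lef1 and Sp5. They were taken as a named list from the 55401 genes counted in each library, and all 10 were found. The RNA came from mouse primary cholangiocytes, the cells lining bile ducts, in wild-type mice (WT) and in mice labelled PLD, a genotype of polycystic liver disease that is induced with tamoxifen and in which ducts grow into fluid-filled cysts. Untreated WT and PLD cells were collected 1 month and 2 months after tamoxifen. PLD cells labelled 3 months came from mice treated with CPTH6, an inhibitor of histone acetyltransferases, or with ML324, an inhibitor of histone demethylases. Each of the 6 groups has 3 libraries, 18 in all. No untreated PLD or WT cells at 3 months were among the samples analysed here, so the compound and the age cannot be told apart. The labels describe library construction of the untreated and of the treated samples in separate statements and do not say whether they were made together. The labels used here do not name the inactivated gene, the Cre driver, the sex or the age at induction, nor do they say that the 3 libraries of a group came from separate animals, so p-values measure the spread between these libraries, which may be technical.

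In canonical Wnt signalling, a Wnt ligand bound to a Frizzled receptor and LRP5 or LRP6 stops a destruction complex built on axin from degrading beta-catenin, which then binds TCF and LEF factors on DNA. Several of the genes switched on in this way damp the signal: Axin2 rebuilds the destruction complex, Nkd1 binds Dishevelled, Notum is a secreted enzyme that removes the lipid from Wnt ligands, and Rnf43 and Znrf3 are membrane ubiquitin ligases that clear Frizzled from the surface. Lgr4 and Lgr5 are receptors for R-spondins, which neutralise Rnf43 and Znrf3. Tcf7 and Lef1 encode beta-catenin's DNA-binding partners, and Sp5 a zinc finger factor that acts on the same targets. In the liver, Wnt signals come largely from endothelial and stromal cells, and the pathway is best known there for setting the gene programme of hepatocytes around the central vein.

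Libraries held 16345740 to 29277311 counts on genes. Cells had been enriched with EpCAM-coated beads, and the defining duct genes Krt19 and Epcam were read in every group, from 219.9 ± 48.4 CPM of Krt19 (counts scaled by library size and TMM factors, mean ± SD, n = 3) in WT at 2 months to 3445 ± 490.5 with CPTH6, yet markers of other cells were read too. The summed level of 16 cholangiocyte markers ranged from 3945 to 14340 in the 6 WT libraries, from 13730 to 23650 in the 6 untreated PLD libraries, and from 27130 to 38700 in the 6 treated ones. The sum of 16 stellate cell and fibroblast markers ranged from 4066 to 21840 in WT, 4837 to 16740 in untreated PLD and 599.9 to 1653 in treated PLD. Replicate 3 of WT at 1 month stood apart from its group, with 4066 CPM of stellate cell and fibroblast markers against 21560 and 21840, and replicate 1 of WT at 2 months had at least 1 count for 40039 genes, the most of the 18 libraries. Values without this pair of libraries, an alternative chosen after seeing the data, are given where they change a member's call. In RNA from bulk preparations, fewer cells of a type and less RNA per cell cannot be told apart.

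Compared per kilobase of exon, Nkd1 was the most abundant of the 10 genes in each of the 4 untreated groups, at 12.5 ± 1.55 CPM per kilobase (SD, n = 3) in PLD at 2 months. Lgr4 came next in those 4 groups and took the first place in both treated groups, at 12.1 ± 2.09 with CPTH6 and 12.6 ± 0.735 with ML324. Axin2 ranked 5 of the 10 in both WT groups, at 1.84 ± 0.763 and 1.82 ± 0.278 CPM per kilobase, and 3 in PLD at 2 months, at 7.48 ± 1.93. In treated cells it was at 0.731 ± 0.233 and 0.889 ± 0.290 with CPTH6 and ML324. Notum went from 0.250 ± 0.234 CPM per kilobase in WT at 2 months, rank 8, to 5.66 ± 2.12 in PLD at that time, rank 4. Part of the exon bases of Notum and Axin2 is shared with another gene and gave no counts. Per kilobase of the bases not shared, a scale chosen after seeing the data, Notum had 9.15 ± 3.43 CPM in PLD at 2 months and Axin2 7.77 ± 2.00 (SD, n = 3), so that Notum ranked 3 and Axin2 4. At the other end, Lgr5 was the least abundant per kilobase in all 6 groups, with a mean of at most 0.132 CPM per kilobase. Sp5 had group means of at most 0.272 CPM per kilobase and Lef1 of at most 0.277.

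**Figure D1:**
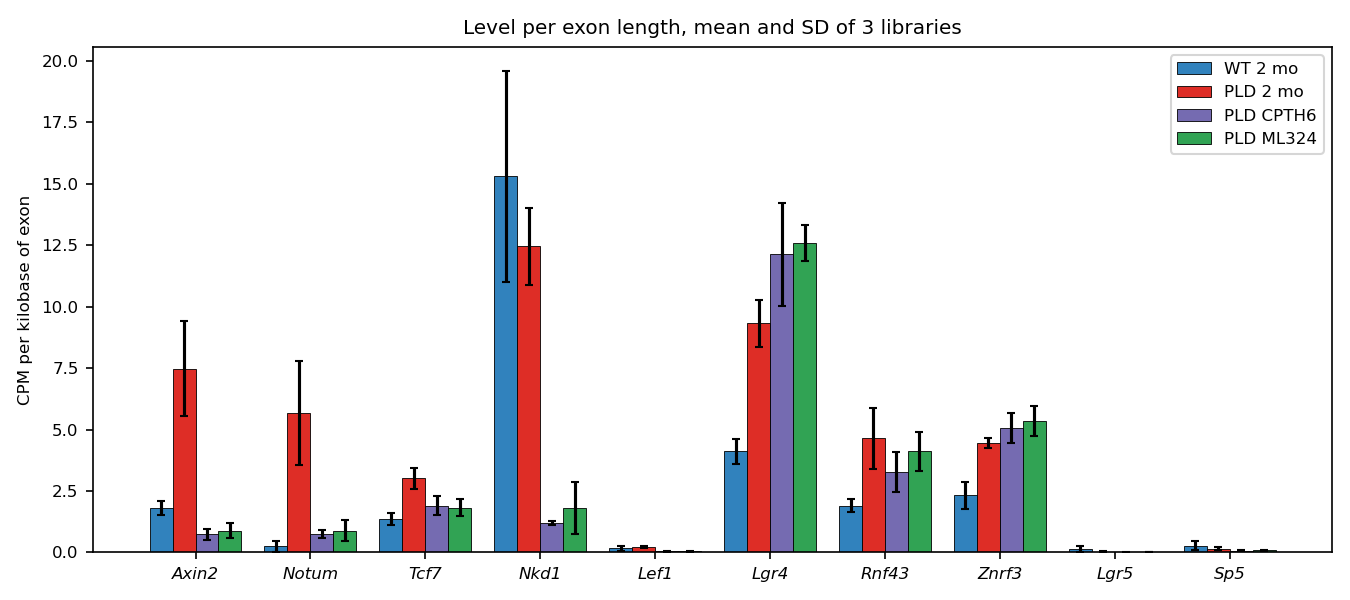
Mean level per kilobase of exon (CPM per kilobase, linear axis from 0) of the 10 genes in WT and PLD cells at 2 months and in PLD cells treated with CPTH6 or ML324. Bars are means of 3 libraries and error bars are SDs. Axin2 and Notum are high in untreated PLD alone, at 7.48 and 5.66, Nkd1 is high in both untreated groups, and Lgr4 is highest in the treated groups.

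Axin2 lies on chromosome 11 (mm10, 108920349 to 108950783, plus strand), Notum on chromosome 11 (120653788 to 120661175, minus strand) and Nkd1 on chromosome 8 (88521354 to 88594884, plus strand). Reads were counted without strand, and 3.80% of the exon bases of Axin2, 38.1% of Notum and 13.8% of Lef1 also belong to a gene annotated on the opposite strand. Those opposite genes were near the floor: Gm11670, opposite Axin2, had at most 0.208 CPM in any library, and Gm43352, opposite Lef1, at most 0.279. Opposite Notum, Notumos reached 0.769 ± 0.153 CPM (SD, n = 3) in PLD at 2 months against 0.188 ± 0.0456 in WT at 2 months, where Notum itself stood at 13.6 and 0.601. Reads falling where both genes overlap were assigned to neither by the authors' counting, so Notum is measured on the rest of its exons and its level per kilobase of all exon bases is understated.

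To show the DNA just before the start of genes at opposite ends of these results, the 250 bases upstream of Axin2, of Lgr4 and of Sp5 are given from RefSeq (GRCm38.p6). Axin2 was higher in PLD at both times, Lgr4 stayed high in treated cells, and Sp5 is the single member whose window holds the searched motif. The motif, shown in capitals, is CTTTGAT, a core sequence bound by TCF and LEF factors, searched on both strands from 250 bases before to 50 after each start.
Axin2 upstream, chr11:108920099-108920348, + strand: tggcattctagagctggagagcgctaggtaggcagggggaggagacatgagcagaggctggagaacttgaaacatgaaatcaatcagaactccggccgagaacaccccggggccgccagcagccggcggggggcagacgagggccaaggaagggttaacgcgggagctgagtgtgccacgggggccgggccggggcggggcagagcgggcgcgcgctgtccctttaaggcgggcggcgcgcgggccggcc
Lgr4 upstream, chr2:109917397-109917646, + strand: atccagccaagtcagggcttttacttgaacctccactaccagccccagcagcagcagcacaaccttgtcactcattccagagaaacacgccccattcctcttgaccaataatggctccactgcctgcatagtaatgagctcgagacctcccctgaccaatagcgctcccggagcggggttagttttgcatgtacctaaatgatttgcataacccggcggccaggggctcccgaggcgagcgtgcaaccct
Sp5 upstream, chr2:70474673-70474922, + strand: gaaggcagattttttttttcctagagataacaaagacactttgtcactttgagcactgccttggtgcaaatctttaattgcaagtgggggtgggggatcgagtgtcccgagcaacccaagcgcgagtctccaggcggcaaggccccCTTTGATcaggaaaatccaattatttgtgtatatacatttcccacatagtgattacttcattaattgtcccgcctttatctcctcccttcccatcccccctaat
Sequences are 5′ to 3′ on the gene's strand. The motif was found in Sp5 only, from base -104 to base -98 before the start, among the 7 members with an entry in the RefSeq table (12 windows). It was present in 1225 of 32851 promoter windows of all genes, or 3.73%. With CTTTGAA allowed as well, 8.65% of all windows had a match and Sp5 was again the 1 member that did. These matches describe letters in a short window and say nothing of factor binding elsewhere.

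The first comparison asks how the Wnt feedback genes differ between PLD and WT cells. At 1 month, Axin2 and Tcf7 were higher in PLD and no member was lower, so 2 of 10 members were called (adjusted p under 0.05) where 5.03% of the 17749 genes tested were called and 3.0% were higher. At 2 months, 6 of the 10 were higher and 0 lower: Axin2, Notum, Tcf7, Lgr4, Rnf43 and Znrf3. At that time 40.0% of all genes tested were called and 19.7% were higher, so a call at 2 months is common in itself. Every PLD library was above every WT library for Axin2, Notum and Tcf7 at 1 month, beside 13.7% of all genes, and for the 6 called members at 2 months, beside 27.9%. Scaling by library size alone moved the median log2 change of all genes at 2 months from -0.03 to -0.14 and the share of calls that were higher from 49.2% to 36.9%, and left 5 of the 6 members called, all but Znrf3. The median log2 fold change of the 10 members was 0.04 at 1 month and 1.01 at 2 months, beside -0.05 and -0.03 over all genes tested. Nkd1, Lef1, Lgr5 and Sp5 were called at neither time.

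**Figure D2:**
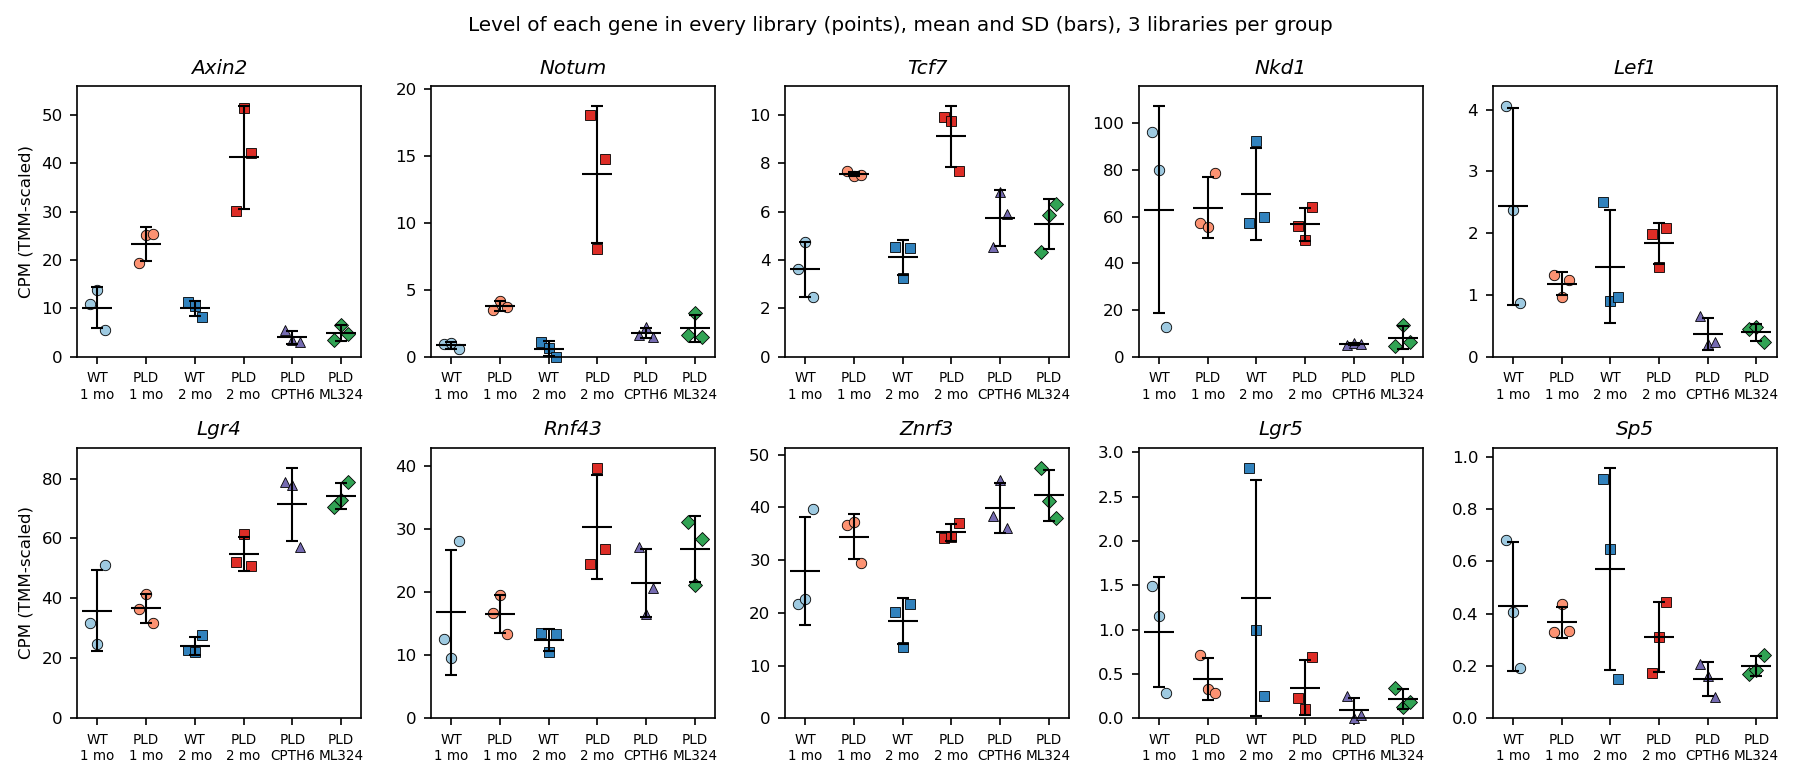
Level of each of the 10 genes in all 18 libraries (points, TMM-scaled CPM on linear axes from 0, a separate axis per gene), with the mean and SD of the 3 libraries of each group. Axin2, Notum and Tcf7 are highest in untreated PLD, Nkd1 and Lef1 fall in the treated groups, and Lgr4 and Znrf3 are highest there.

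Among the inhibitors of the pathway, Axin2 read 10.9, 13.9 and 5.61 CPM in the 3 WT libraries at 1 month and 19.4, 25.2 and 25.4 in PLD. At 2 months it read 11.2, 10.6 and 8.30 CPM in WT and 30.1, 51.3 and 42.1 in PLD. Every PLD library was above every WT library at both times. The fold change was 2.31 at 1 month (log2 1.21 ± 0.30, adjusted p = 0.0451) and 4.01 at 2 months (log2 2.00 ± 0.31, adjusted p = 0.000695). The call at 2 months held in each of the 12 fits that left out 1 library. At 1 month it held in 3 of 12, those without PLD replicate 2 at 2 months and without WT replicate 2 or 3 at 1 month. In the others, which each left out 1 of the remaining 9 libraries, the adjusted p rose to between 0.0510 and 0.172, and it was 0.132 in a fit of the 6 libraries at 1 month alone.

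Notum, which acts outside the cell, read 0.939, 1.04 and 0.581 CPM in WT and 3.47, 4.20 and 3.74 in PLD at 1 month. At 2 months its levels were 1.11, 0.689 and 0 CPM in WT and 18.1, 8.05 and 14.8 in PLD. The WT library at 0 allows up to 0.152 CPM by counting error. The groups did not overlap at either time, and the lowest PLD library at 2 months was 8.05 CPM against 1.11 in the highest WT library. By edgeR the log2 change was 2.15 ± 0.66 at 1 month, which did not pass the threshold (adjusted p = 0.0835), and 4.40 ± 0.71 at 2 months, which did (adjusted p = 0.000980). That is a 21.2-fold difference, the largest of the 10 genes in any of the comparisons made here. With DESeq2 the value at 1 month was called as well (adjusted p = 0.00871), as it was in the fit without WT replicate 3 at 2 months (adjusted p = 0.0150). In edgeR it was also called with no filter on low counts (adjusted p = 4.09e-05) and with all 18 libraries in 1 fit (0.0380).

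Nkd1, an inhibitor inside the cell, did not follow Axin2 and Notum. It read 96.5, 79.9 and 12.7 CPM in WT and 57.5, 55.5 and 78.8 in PLD at 1 month, then 57.1, 92.3 and 59.8 in WT and 55.9, 50.2 and 64.2 in PLD at 2 months. The groups overlapped at both times, and the widest gap lay within WT at 1 month, where replicate 3 had the lowest value of the 12 untreated libraries. Its log2 changes were 0.04 ± 0.52 (adjusted p = 0.976) and -0.33 ± 0.52 (adjusted p = 0.644).

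At the level of the receptors, Lgr4, the R-spondin receptor with the highest level here, read 31.8, 24.9 and 51.0 CPM in WT and 36.6, 41.5 and 31.9 in PLD at 1 month. At 2 months it read 22.7, 22.1 and 27.7 CPM in WT and 52.3, 61.4 and 50.9 in PLD, with no overlap. The change at 2 months was 2.23-fold (log2 1.15 ± 0.23, adjusted p = 0.00311), while at 1 month the groups overlapped (log2 0.04 ± 0.23, adjusted p = 0.944). The ubiquitin ligases had the same order of groups at 2 months. Rnf43 read 13.5, 10.5 and 13.4 CPM in WT and 24.5, 39.8 and 26.9 in PLD (log2 1.26 ± 0.36, adjusted p = 0.0176). Znrf3 read 20.1, 13.4 and 21.6 CPM in WT and 34.2, 34.4 and 37.1 in PLD (log2 0.91 ± 0.25, adjusted p = 0.0138). Neither pair of groups overlapped at 2 months. The call for Rnf43 was lost without PLD replicate 2 (adjusted p = 0.0696) or WT replicate 2 (0.0687) at 2 months, and that for Znrf3 without WT replicate 2 (0.0564).

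The ligases differed little between genotypes at 1 month. Rnf43 was at 12.6, 9.64 and 28.2 CPM in WT and 16.8, 19.6 and 13.5 in PLD, and Znrf3 at 21.6, 22.5 and 39.8 in WT and 36.6, 37.3 and 29.5 in PLD. For both, as for Lgr4, the highest WT library was replicate 3, the library with the most cholangiocyte markers of the 6 WT libraries. Without that library Znrf3 was called at 1 month (log2 0.66, adjusted p = 0.0307), as it was without the pair that stands apart (0.0373). Lgr5, the second R-spondin receptor and a stem cell marker in other epithelia, was close to the floor, with 0 to 71 counts per library. It read 1.49, 1.15 and 0.290 CPM in WT and 0.717, 0.336 and 0.287 in PLD at 1 month, and 2.83, 0.990 and 0.253 in WT and 0.233, 0.104 and 0.692 in PLD at 2 months. The groups overlapped, and its log2 change at 2 months of -2.02 ± 0.92 was not called (adjusted p = 0.102). In the fit without WT replicate 3 at 2 months it was called as lower in PLD (log2 -2.49, adjusted p = 0.0434), as it was with all libraries and no filter on low counts (log2 -1.98, adjusted p = 0.0298).

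Of the transcription factors, Tcf7 was the steadiest. It read 3.63, 4.75 and 2.47 CPM in WT and 7.66, 7.49 and 7.52 in PLD at 1 month, and 4.54, 3.27 and 4.50 in WT and 9.90, 9.76 and 7.66 in PLD at 2 months. No WT library reached the lowest PLD library. Its log2 change was 1.07 ± 0.24 at 1 month (adjusted p = 0.0327) and 1.12 ± 0.24 at 2 months (adjusted p = 0.00437). At 1 month the call was lost in 5 of the 12 fits that left out 1 library, those without PLD replicate 1 at 2 months, without any of the 3 PLD replicates at 1 month, or without WT replicate 1 at 1 month, with adjusted p from 0.0534 to 0.131. It was also lost in the fit of the 6 libraries at 1 month alone (0.122) and with the replicate number as a block (0.0520).

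Lef1 was low and uneven, at 4.06, 2.37 and 0.871 CPM in WT and 1.32, 0.973 and 1.25 in PLD at 1 month, and at 2.51, 0.904 and 0.962 in WT and 1.98, 1.45 and 2.08 in PLD at 2 months. Its groups overlapped at both times and its log2 changes, -1.03 ± 0.54 and 0.28 ± 0.54, were not called (adjusted p = 0.269 and 0.704). Leaving out the pair of WT libraries that stand apart called Lef1 as lower in PLD at 1 month (log2 -1.43, adjusted p = 0.0159) and as higher at 2 months (log2 0.96, adjusted p = 0.0495). Sp5, whose promoter window holds the motif printed above, had 2 to 23 counts per library. It read 0.683, 0.408 and 0.194 CPM in WT and 0.331, 0.436 and 0.335 in PLD at 1 month, and 0.916, 0.646 and 0.152 in WT and 0.175, 0.312 and 0.445 in PLD at 2 months. A difference was not detectable at this depth (log2 -0.91 ± 0.65 at 2 months, adjusted p = 0.280).

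**Figure D3:**
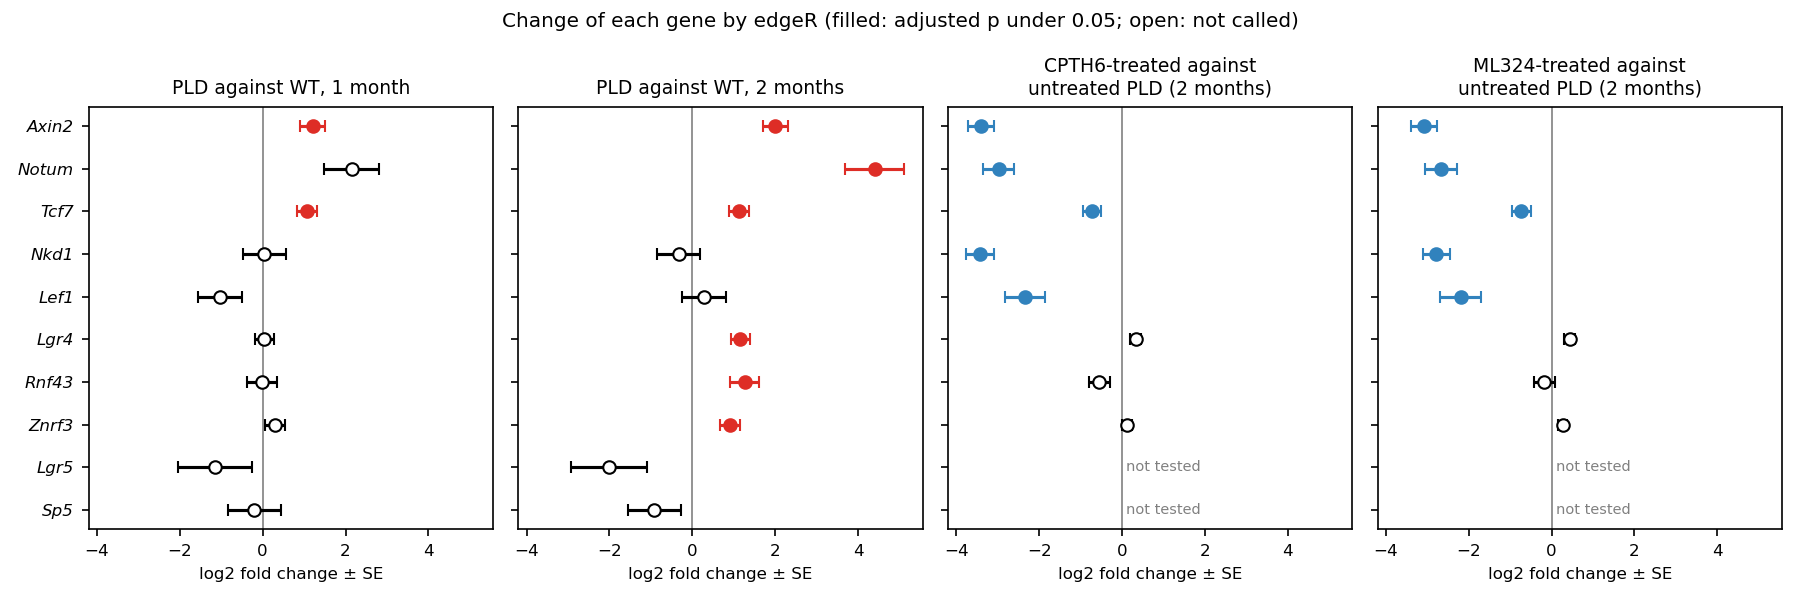
Log2 fold change with its standard error for the 10 genes in 4 comparisons, by edgeR. Filled points passed an adjusted p of 0.05 (red higher, blue lower), open points did not, and Lgr5 and Sp5 were too low to be tested in the treated fits. Axin2, Notum and Tcf7 lie to the right of 0 in PLD against WT and to the left in both treated groups, while Nkd1 and Lef1 were called in the treated groups and not between PLD and WT.

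Time was the second axis of the untreated set. Between 1 and 2 months in PLD cells, edgeR called 0 of the 10 members, beside 9.61% of all genes tested, although 4 had an unadjusted p under 0.05 and DESeq2 called 2, Axin2 and Notum. Those 4 were Axin2 (log2 0.83 ± 0.29, adjusted p = 0.0937), Notum (1.84 ± 0.62, 0.0803), Lgr4 (0.59 ± 0.23, 0.119) and Rnf43 (0.88 ± 0.36, 0.129). Their 2-month libraries were all above their 1-month libraries, as were those of Lef1, beside 20.5% of all genes. This result depended on the libraries and settings used. Without WT replicate 3 at 1 month, which belongs to neither group, all 4 were called, with adjusted p from 0.0157 to 0.0383. All 4 were also called in a fit of the PLD libraries at 1 and 2 months alone. The adjusted p in that fit was 0.0305 for Axin2, 0.00975 for Notum, 0.0187 for Lgr4 and 0.0286 for Rnf43. Without the pair of libraries that stand apart, the same 4 genes were called, with adjusted p of 0.0216 for Axin2, 0.0297 for Notum, 0.0201 for Lgr4 and 0.0204 for Rnf43. Without WT replicate 3 at 2 months, Notum was called (0.0194), as it was with all 18 libraries in 1 fit (0.0469). With no filter on low counts, Axin2 (0.0141), Rnf43 (0.0144) and Notum (0.000212) were called.

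In WT cells, 0 members were called between 1 and 2 months by edgeR or by DESeq2, beside 0.0507% of all genes tested by edgeR. Lgr4 (log2 -0.53 ± 0.23) and Znrf3 (log2 -0.56 ± 0.25) were the 2 with an unadjusted p under 0.05. Axin2 differed by 0.03 ± 0.30. Whether the genotype difference itself changed with time was tested as an interaction. None of the 10 members passed in edgeR, beside 5.68% of all genes tested, 3 had an unadjusted p under 0.05, and DESeq2 called 1, Lgr4. The 3 were Lgr4 (log2 1.12 ± 0.33, adjusted p = 0.0703), Rnf43 (1.27 ± 0.50, 0.160) and Notum (2.25 ± 0.94, 0.177), and Lgr4 was called without WT replicate 2 at 1 month (0.0221). With no filter on low counts all 3 were called (0.00605, 0.00981 and 0.00476), and without the pair of libraries that stand apart Lef1 was called (log2 2.39, adjusted p = 0.0216). For Axin2 the interaction was 0.80 ± 0.42 (adjusted p = 0.277), so its larger difference from WT at 2 months than at 1 month did not pass the test.

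In PLD cells from treated mice, 5 feedback genes were lower than in untreated PLD cells at 2 months with either compound: Nkd1, Axin2, Notum, Lef1 and Tcf7. None was higher, and Lgr4, Rnf43 and Znrf3 were not called. Of the 10 members 8 were tested, and the 5 called stand beside 23.1% of all 16502 genes tested that were called with CPTH6, 13.7% as lower, and 19.4% with ML324, 11.4% as lower. For each of the 5, every treated library was below every untreated one with either compound, beside 21.1% of all genes with CPTH6 and 20.4% with ML324. The median log2 change of the 8 tested members was -1.53 with CPTH6 and -1.46 with ML324, beside -0.04 and -0.01 over all genes. Both comparisons share the same 3 untreated libraries, so the agreement between the compounds is not independent.

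Axin2 read 5.49, 3.47 and 3.11 CPM with CPTH6 and 3.42, 6.59 and 4.67 with ML324. Each of these 6 libraries was below each untreated PLD library, and below each WT library at 2 months, whose lowest value was 8.30. Against untreated PLD at 2 months Axin2 fell 10.6-fold with CPTH6 (log2 -3.41 ± 0.31, adjusted p = 0.000363) and 8.44-fold with ML324 (log2 -3.08 ± 0.31, adjusted p = 0.000699). Notum read 1.62, 2.22 and 1.51 CPM with CPTH6 and 1.60, 3.29 and 1.52 with ML324, all below untreated PLD at either time and above all 6 WT libraries, whose highest was 1.11. Its log2 changes were -2.98 ± 0.38 (adjusted p = 0.000941) and -2.67 ± 0.38 (adjusted p = 0.00212). Against WT at 1 month, treated Axin2 overlapped, since WT replicate 3 read 5.61. The treated levels of Axin2 and Notum thus lay on opposite sides of the WT levels at 2 months, a contrast for which no test was made because treated and WT libraries differ in genotype, age and compound at once.

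Nkd1 showed a drop as large as that of Axin2, although it had not differed between PLD and WT. Its libraries read 5.08, 5.93 and 5.40 CPM with CPTH6 and 4.50, 13.7 and 6.55 with ML324, against at least 50.2 in untreated PLD at 2 months. The log2 changes were -3.42 ± 0.33 (adjusted p = 0.000379) and -2.79 ± 0.33 (adjusted p = 0.00102). Lef1 read 0.666, 0.202 and 0.245 CPM with CPTH6 and 0.456, 0.488 and 0.242 with ML324, all under the lowest untreated PLD library of either time. It fell by 2.34 ± 0.48 on the log2 scale with CPTH6 (adjusted p = 0.00828) and by 2.19 ± 0.50 with ML324 (adjusted p = 0.0150), and the second call was lost without ML324 replicate 3 (adjusted p = 0.0594).

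Tcf7 changed least among the 5. It read 4.54, 6.82 and 5.89 CPM with CPTH6 and 4.33, 5.86 and 6.30 with ML324, below the lowest untreated PLD library at 2 months of 7.66 and overlapping WT. Its log2 changes of -0.72 ± 0.22 (adjusted p = 0.0396) and -0.73 ± 0.22 (adjusted p = 0.0439) were close to the threshold. With CPTH6 the call was lost without replicate 1 or 2 of untreated PLD at 2 months or without any 1 of the 3 CPTH6 replicates, with adjusted p from 0.0554 to 0.128. With ML324 it was lost in 8 of the 9 fits that left out 1 library, all but that without CPTH6 replicate 1, with adjusted p from 0.0508 to 0.144. It was also lost in fits of the ML324 and control libraries alone (0.0722) and with the replicate number as a block (0.0525). With DESeq2's size factors in edgeR the adjusted p was 0.0509 for each compound, and with no filter on low counts 0.0678 with CPTH6 and 0.0542 with ML324.

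Among the receptor-level genes, Lgr4, Rnf43 and Znrf3 passed the test with neither compound. Lgr4 read 79.0, 77.9 and 57.2 CPM with CPTH6 and 70.5, 72.8 and 78.9 with ML324. All 3 ML324 libraries and 2 of the CPTH6 libraries were above the untreated PLD range of 50.9 to 61.4. Its log2 difference was 0.33 ± 0.14 with CPTH6 (adjusted p = 0.114) and 0.43 ± 0.14 with ML324 (adjusted p = 0.0521). The second was called higher in 5 of 8 other settings, apart from leaving out a library. DESeq2 (0.0274), its size factors in edgeR (0.0472) and no filter on low counts (0.0155) called it. So did a filter at a mean of at least 1 CPM (0.0457) and the ML324 and control libraries alone (0.0351). Leaving out CPTH6 replicate 3 called Lgr4 as higher with both compounds (0.0355 and 0.0305), as did leaving out untreated PLD replicate 2 with ML324 (0.0350). Znrf3 read 38.3, 45.2 and 36.1 CPM with CPTH6 and 47.5, 41.2 and 38.0 with ML324 (log2 0.13 ± 0.11 and 0.26 ± 0.12, adjusted p = 0.470 and 0.139). Rnf43 read 27.3, 16.6 and 20.7 CPM with CPTH6 and 31.2, 21.1 and 28.5 with ML324 (log2 -0.55 ± 0.25 and -0.18 ± 0.25, adjusted p = 0.142 and 0.668), and with no filter on low counts it was called lower with CPTH6 (log2 -0.51, adjusted p = 0.0179). Lgr5 and Sp5 did not pass the filter on low counts and were not tested. Lgr5 read 0.250, 0 and 0.0409 CPM with CPTH6, where the library at 0 allows up to 0.121 CPM, and 0.342, 0.122 and 0.182 with ML324. Sp5 read at most 0.208 CPM with CPTH6 and 0.242 with ML324.

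Set directly against each other, the 2 treatments did not differ for any of the 7 members tested. edgeR called 0 of them, 0 had an unadjusted p under 0.05 and DESeq2 also called 0, while 0.0% of all 15989 genes tested were called. CPTH6 minus ML324 was -0.33 ± 0.33 for Axin2, -0.31 ± 0.38 for Notum, -0.64 ± 0.37 for Nkd1, -0.11 ± 0.13 for Lgr4, -0.14 ± 0.12 for Znrf3, -0.38 ± 0.22 for Rnf43 and 0.01 ± 0.24 for Tcf7 on the log2 scale. With these errors a modest difference in Axin2, Notum or Nkd1 would not have been seen, and the result does not show that the compounds act alike.

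The other genes of the pathway are given by role, and their counts stand beside the same shares of all genes tested: 5.03% called at 1 month, 40.0% at 2 months, 23.1% with CPTH6 and 19.4% with ML324. Of 16 further receptors, Frizzled and co-receptor genes, 15 were tested at 2 months, and 3 were higher and 5 lower in PLD, with a median log2 change of -0.28. Fzd1 rose (log2 2.74 ± 0.19, adjusted p = 4.55e-05), and Fzd6 (-1.70 ± 0.14, adjusted p = 5.88e-05) and Fzd4 (-1.58 ± 0.24, adjusted p = 0.000687) fell. Fzd1 was also the 1 receptor called at 1 month (log2 1.55 ± 0.19, adjusted p = 0.00289). In treated cells Fzd1 fell again, by 2.60 ± 0.19 with CPTH6 (adjusted p = 0.000163) and by 2.83 ± 0.19 with ML324 (adjusted p = 0.000152). With it fell the Wnt5a receptor Ror2, by 3.15 ± 0.36 (adjusted p = 0.000684) and 2.69 ± 0.36 (adjusted p = 0.00157). Lgr6, another R-spondin receptor, fell by 2.59 ± 0.48 with CPTH6 (adjusted p = 0.00491), and Ryk by 0.55 ± 0.09 with ML324 (adjusted p = 0.00468). The level of Lgr6 was as low with ML324, at 1.55 ± 0.923 CPM, as with CPTH6, at 1.79 ± 0.345, against 10.5 ± 4.61 in PLD at 2 months (SD, n = 3).

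Of 18 other inhibitors, 15 were tested in the untreated cells. At 1 month Sfrp5, which binds Wnt ligands, was the 1 called, lower in PLD (log2 -2.30 ± 0.23, adjusted p = 0.00132). At 2 months 3 were higher and 5 lower, and Sfrp5 (-3.19 ± 0.25, adjusted p = 5.59e-05), Sostdc1 (-3.45 ± 0.53, adjusted p = 0.000698) and Sost (-4.31 ± 0.83, adjusted p = 0.00250) were the 3 of smallest p. In treated cells 9 of 11 tested inhibitors were lower with CPTH6 and 10 of 11 with ML324, and 0 were higher. Apcdd1, a membrane inhibitor, fell by 2.97 ± 0.27 (adjusted p = 0.000359) and 3.22 ± 0.27 (adjusted p = 0.000400). Frzb fell by 3.85 ± 0.40 (adjusted p = 0.000431) and 3.33 ± 0.39 (adjusted p = 0.00104), and Dkk2 by 2.89 ± 0.30 (adjusted p = 0.000457) and 2.48 ± 0.30 (adjusted p = 0.00116). The medians of the tested inhibitors, -2.92 and -2.54, were lower than those of the 8 tested feedback genes. Across the 6 groups Apcdd1 had its highest mean where Axin2 did, at 38.5 ± 9.95 CPM in PLD at 2 months, against 15.6 ± 2.71 in WT.

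All 29 genes of the intracellular core, which hold the destruction complex, Dishevelled, beta-catenin and its cofactors, were tested. At 1 month 2 were higher in PLD and 0 lower, the corepressor Tle3 (log2 0.62 ± 0.11, adjusted p = 0.0175) and Wls, which carries Wnt ligands to the cell surface (0.76 ± 0.16, adjusted p = 0.0273). At 2 months 11 were higher and 4 lower, with Tle3 (0.80 ± 0.12, adjusted p = 0.000530), Axin1, the constitutive relative of Axin2 (0.85 ± 0.13, adjusted p = 0.000587), and Wls (0.98 ± 0.16, adjusted p = 0.00108) leading by p. In treated cells 3 of the 29 were higher and 3 lower with CPTH6, beside 23.1% of all genes called, and 2 and 2 with ML324, beside 19.4%, and those named here changed by less than 0.5 on the log2 scale. Apc rose by 0.35 ± 0.08 (adjusted p = 0.0122) and 0.41 ± 0.08 (adjusted p = 0.00801), Csnk1a1 rose by 0.36 ± 0.09 with CPTH6 (adjusted p = 0.0164), Dvl2 fell by 0.46 ± 0.12 with ML324 (adjusted p = 0.0290), and Bcl9 fell by 0.39 ± 0.08 (adjusted p = 0.00723) and 0.31 ± 0.08 (adjusted p = 0.0249).

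Of 14 other genes known as Wnt targets in various tissues, 11 were tested at 2 months, where 2 were higher and 3 lower in PLD, beside 40.0% of all genes called in either direction. Ephb3, a receptor kinase, rose (log2 2.57 ± 0.27, adjusted p = 0.000124), and Bambi (-0.70 ± 0.19, adjusted p = 0.0150) and Tnfrsf19 (-1.94 ± 0.54, adjusted p = 0.0152) fell. At 1 month 0 of 11 were called by edgeR and 5 had an unadjusted p under 0.05, with Ephb3 (0.94 ± 0.26, adjusted p = 0.0585) and Tnfrsf19 (-1.90 ± 0.53, adjusted p = 0.0613) nearest. In treated cells Ephb3 went up further, by 0.87 ± 0.19 with CPTH6 (adjusted p = 0.0107) and 0.88 ± 0.19 with ML324 (adjusted p = 0.0124), which is opposite to Axin2. Prox1 was higher with CPTH6 (0.97 ± 0.19, adjusted p = 0.00615), Tbx3 fell by 1.97 ± 0.38 (adjusted p = 0.00591) and 2.03 ± 0.39 (adjusted p = 0.00725), and Bambi by 1.62 ± 0.29 with ML324 (adjusted p = 0.00524). In all, 4 of 12 tested targets were higher and 2 lower with CPTH6, and 2 and 2 with ML324.

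Among 9 genes of the Wnt-dependent pericentral hepatocyte programme, 8 were tested at 2 months, with 1 higher and 2 lower in PLD. Cyp2e1, a pericentral cytochrome, was higher (log2 3.42 ± 0.67, adjusted p = 0.00270), and Slc1a2 (-2.38 ± 0.64, adjusted p = 0.0138) and Oat (-1.24 ± 0.42, adjusted p = 0.0365) were lower, the last being the enzyme ornithine aminotransferase. The summed level of 16 general hepatocyte markers was 662.4 to 1017 CPM in WT and 2574 to 5881 in PLD at 2 months. The single markers did not move together: 5 of the 16 were called higher in PLD and 6 lower, with a median log2 change of -0.85. The part of hepatocyte RNA in these values was not tested. Of 23 Wnt ligands and R-spondins 15 were tested, of which 7 were higher and 4 lower in PLD at 2 months, led by Wnt7a (4.85 ± 0.34, adjusted p = 4.55e-05), Rspo3 (-4.94 ± 0.42, adjusted p = 7.04e-05) and Wnt10a (3.93 ± 0.35, adjusted p = 7.82e-05). In treated cells 7 of 15 were lower with each compound and 0 higher.

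The levels of cell type markers moved with several of these genes. At 2 months the stellate cell and fibroblast sum was 9299 to 16980 CPM in WT and 4837 to 9381 in PLD, the endothelial sum 9148 to 16620 and 1033 to 1880, and the cholangiocyte sum 3945 to 8019 and 22430 to 23650. Lgr4, Rnf43 and Znrf3 were higher at 2 months where cholangiocyte markers were higher, and so were Axin2, Notum and Tcf7. In these PLD libraries every endothelial sum was below every WT library, and the stellate cell and fibroblast sums overlapped WT only at 9381 against 9299. Of the 16 genes in the latter sums, edgeR called 7 as lower in PLD and 0 as higher. Mmp2, a metalloproteinase made by fibroblasts and not among those 16, went the other way, at 122 ± 34.7 CPM in WT and 376 ± 20.1 in PLD (SD, n = 3). It was picked for its likeness to Axin2 over the 18 libraries, so its rise beside Axin2 follows from that choice. Whether RNA from fibroblasts fell or rose where Axin2 rose was not tested. Within PLD at 2 months the library with the fewest stellate cell and fibroblast markers, replicate 2 at 4837 CPM, had the highest Axin2, at 51.3, and the lowest Notum, at 8.05. At 1 month the same sums were 4066 to 21840 in WT and 12540 to 16740 in PLD for stellate cells and fibroblasts, and 6312 to 14340 and 13730 to 19140 for cholangiocytes. At that time Lgr4 was at 35.9 ± 13.6 CPM in WT and 36.7 ± 4.81 in PLD, and Rnf43 at 16.8 ± 9.94 and 16.6 ± 3.06 (SD, n = 3). Znrf3 was at 28.0 ± 10.2 and 34.5 ± 4.31. None of these was called, and for each the highest WT library was replicate 3, which had the most cholangiocyte markers. T and NK cell markers, a possible source of Tcf7 and Lef1, summed to 57.6 to 83.8 CPM in WT and 112 to 211 in PLD at 2 months, with Cd3e at 0.476 ± 0.157 and 0.435 ± 0.259. A large part of that sum was Thy1, at 32.7 ± 3.36 CPM in WT and 132 ± 37.3 in PLD (SD, n = 3). Of the 10 T and NK cell markers tested, 1 was called higher in PLD and 0 lower, with a median log2 change of -0.19. Their part in the result was not tested.

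In the treated libraries the stellate cell and fibroblast sum was 910 to 1071 CPM with CPTH6 and 599.9 to 1653 with ML324, against 4837 to 9381 in untreated PLD at 2 months. All 16 markers were still read at a mean of at least 1 CPM with CPTH6 and 15 of 16 with ML324, and none was at 0 in a group. Of the 16, 15 were lower with CPTH6 and 14 with ML324, with median log2 changes of -3.33 and -2.86, close in size to those of Nkd1, Axin2 and Notum. The endothelial sum was 276.2 to 432.1 CPM and 203.4 to 890.2, against 1033 to 1880. T and NK cell markers summed to 22.6 to 28.8 and 21.4 to 47.5 CPM, against 112 to 211. Thy1 among them was at 12.6 ± 3.93 and 20.2 ± 14.7 CPM, against 132 ± 37.3 (SD, n = 3). Of 8 T and NK cell markers tested, 4 were called lower with CPTH6 and 2 with ML324, and 0 were higher. The treated library with the most stellate, fibroblast and endothelial markers, ML324 replicate 2, also had the highest Nkd1, Axin2 and Notum of the 6 treated libraries, at 13.7, 6.59 and 3.29 CPM. Lef1 was highest in CPTH6 replicate 1, at 0.666 CPM. Among the CPTH6 libraries, replicate 2 had the most of these markers and the highest Nkd1 and Notum, at 5.93 and 2.22 CPM. Its Axin2 and Lef1, at 3.47 and 0.202 CPM, were below those of replicate 1, where Axin2 was at 5.49. The cholangiocyte sum was 31350 to 38700 CPM and 27130 to 33700, above 22430 to 23650. Whether the fall of Axin2, Notum, Nkd1 and Lef1 took place within the duct cells or followed these other cells was not tested.

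**Figure D4:**
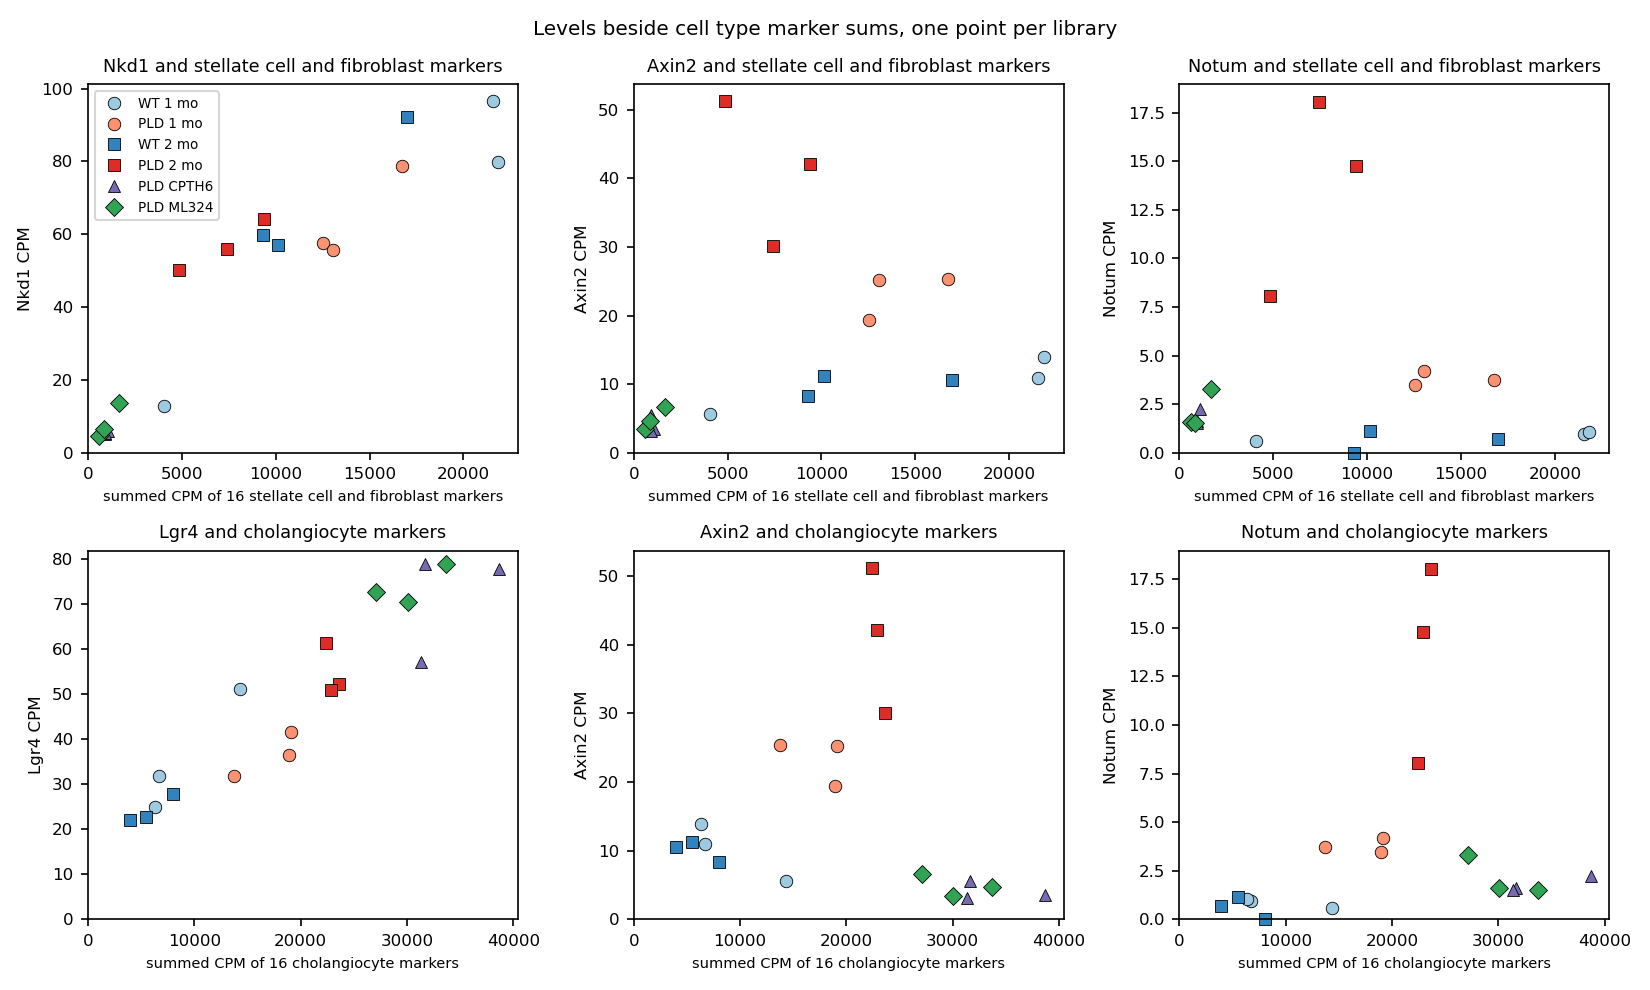
Level of 4 genes (CPM, linear axes) against the summed CPM of 16 stellate cell and fibroblast markers (upper row) or 16 cholangiocyte markers (lower row), a point per library, coloured by group. Nkd1 is low in the 6 treated libraries and in WT replicate 3 at 1 month, which have 599.9 to 4066 CPM of stellate cell and fibroblast markers. Lgr4 reaches 79.0 in the treated libraries, which have the most cholangiocyte markers. Axin2 and Notum are highest in untreated PLD. Cholangiocyte sums there, 13730 to 23650 CPM, overlap WT only at 14340, in WT replicate 3 at 1 month. Stellate cell and fibroblast sums run from 4837 to 16740 CPM in untreated PLD and from 4066 to 21840 in WT.

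The genes whose log2 CPM was most like that of Axin2 over the 18 libraries were sought among 9912 genes with a mean of at least 10 CPM. They were Scube1 (Pearson r = 0.929), Mmp2 (0.928), Lrrk1 (0.926), Adcy7 (0.919) and Gfra2 (0.916). These libraries share their group and cell makeup, and the treated ones form a separate cluster, so the values are a description with n = 18 libraries and no test. Mmp2, a matrix metalloproteinase made by fibroblasts, had 122 ± 34.7 CPM at 2 months in WT, 376 ± 20.1 in PLD and 28.6 ± 6.10 with CPTH6. Over the 12 untreated libraries alone, none of these 5 remained among the first 5. The leading genes were then Plat (r = 0.970), Cx3cl1 (0.963), Paqr8 (0.961), Nbl1 (0.955) and Ccdc12 (0.954), and over all 18 libraries r fell to -0.09 for Plat and 0.25 for Cx3cl1. Plat, which encodes tissue plasminogen activator, had 81.8 ± 4.21 CPM at 2 months in WT and 480 ± 171 in PLD, against 577 ± 64.5 with CPTH6 and 740 ± 235 with ML324.

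For the other members with a mean of at least 1 CPM, the gene most alike over the 18 libraries was Ccdc80 for Nkd1 (r = 0.990), Syngr1 for Lgr4 (0.974), Ccdc112 for Znrf3 (0.974), Grb7 for Rnf43 (0.918), Clec10a for Lef1 (0.902), Trappc6a for Notum (0.865) and Rnf166 for Tcf7 (0.844). Ccdc80 encodes a secreted matrix protein and, like Nkd1, was lowest in treated cells, at 24.4 ± 3.39 CPM with CPTH6 and 37.4 ± 23.5 with ML324, against 362 ± 88.4 in PLD at 2 months and 436 ± 205 in WT at 2 months.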

How the data were processed

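Gene counts were used as the authors deposited them: whole-number counts of read pairs per gene, from featureCounts 1.6.0 run without strand on GENCODE gene models per the file headers, after STAR 2.7.4a, with genome build mm10, SAMtools 1.12 and DESeq2 1.26.0 per the submitters' processing notes. Reads overlapping more than 1 gene were not counted. Symbols were matched by Ensembl identifier. The counts were tested with edgeR 4.0.16 (R 4.3.3): low counts removed by filterByExpr, scaling by TMM, and the quasi-likelihood test with Benjamini-Hochberg adjustment over all genes tested, called at adjusted p under 0.05. The 12 untreated libraries shared a fit, the 6 treated libraries another, and each compound was set against PLD at 2 months in a fit of 9. The script was tested on simulated data. CPM is TMM-scaled, log2 CPM adds a prior count of 2, and standard errors are the log2 fold change over the square root of F. Total counts of 16345740 to 29277311 per library put 3 counts at 0.101 to 0.183 CPM. A library at 0 is given with that limit, which covers counting error only.

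Members and gene lists were chosen with earlier results of these data known. Of each list, up to 3 called genes of smallest p are named per comparison described, or 2 where none was called. Alternatives were size factors, DESeq2 1.42.0, other filters, other sets of libraries, the replicate block and leaving out each library.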

Additional observations from a re-analysis of the deposited data

Results flagged for a closer look

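By an interaction test in edgeR, the difference between PLD and WT changed from 1 month to 2 months for 4 genes of the Wnt lists besides the ligands and R-spondins. Of 15 receptors tested 1 had a higher and 1 a lower value, and of 11 other targets 2 had a higher value. None was called of 15 inhibitors, 29 core genes and 8 pericentral genes. Over all 17749 genes tested 5.68% were called, so calls in these lists are no more than a description. Of the ligands and R-spondins, 3 had a higher and 3 a lower value, of 15. None of the 10 feedback genes was called, of which 3 had an unadjusted p under 0.05 and DESeq2 called 1. Fzd1 and Ephb3 had a larger excess in PLD at 2 months, by 1.20 ± 0.26 (adjusted p = 0.0287) and 1.63 ± 0.36 (0.0315) on the log2 scale. Fzd6 had a larger deficit at 2 months, an interaction of -1.42 ± 0.19 (adjusted p = 0.00869). For Tbx3 the interaction was 1.96 ± 0.49 (0.0438), from a WT level of 14.4 ± 6.74 CPM against 6.12 ± 1.03 for PLD at 1 month to 5.43 ± 0.970 against 9.27 ± 2.30 for PLD at 2 months (SD, n = 3).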

How the results depend on the processing

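Of the 18 member results called among 73 tested, none changed direction under an alternative, and 50 sign changes arose where neither value was called. At 1 month, where 2 members were called, 1 (Axin2) was called with the replicate block, 0 with the 6 libraries of that time alone, 4 without the pair of libraries that stand apart, and 0 to 3 when 1 library was left out. For PLD over time, where 0 were called, DESeq2 called 2, no filter 3, all 18 libraries in 1 fit 1, the 6 libraries alone 4, the set without the pair that stands apart 4, and leave-one-out fits 0 to 4. For the interaction, also 0, the counts were 1 with DESeq2, 3 with no filter, 1 with all 18 libraries, 1 without the pair and 0 to 1 in leave-one-out fits. PLD against WT at 2 months had 4 to 7 calls over the alternatives, the 7 including Lgr5 or Lef1, and CPTH6 had 4 to 5. ML324 had 3 to 5 in leave-one-out fits, the 3 being without ML324 replicate 3. In the 8 other settings ML324 had 4 to 6, and Lgr4 was called as higher in 5 of those 8. The cause of these moves was not tested, beyond the smaller number of libraries in the leave-one-out and 6-library fits.

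Over all genes, calls at 1 month numbered 892, with 29 in the 6 libraries alone, 589 by library size only, 1733 with all 18 libraries, 2194 with no filter, 2477 by DESeq2, 3541 without the pair and 99 to 3485 in leave-one-out fits. PLD over time had 1706, from 965 with the block to 3861 without the pair, and 135 to 3762 in leave-one-out fits. WT over time had 9, from 0 to 1224, and the interaction 1008, from 426 to 2374 (100 to 1413 in leave-one-out fits). CPTH6 against ML324 had 0, with 293 by DESeq2, 232 with no filter and 1 with the block. Leave-one-out fits gave 2490 to 3975 for CPTH6 (3818 in the main comparison) and 1939 to 3081 for ML324 (3203). Scaling by library size only moved the median log2 change of all genes at 2 months from -0.03 to -0.14, and the share of calls that were higher from 49.2% to 36.9%. That share went from 45.6% to 30.9% for PLD over time, 22.2% to 87.8% for WT, 44.9% to 20.4% for the interaction and 40.6% to 27.8% for CPTH6. Of the members, Znrf3 at 2 months lost its call under that scaling (adjusted p = 0.0597).

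The labels do not say that replicate numbers pair the libraries. For same-numbered libraries the correlation of deviations from group means ran from -0.36 to 0.33, and in no pair of groups were all over 0.1. With 3 libraries per group these values cannot exclude a pairing. With the replicate block the paired fit lost Tcf7 at 1 month (adjusted p = 0.0520) and with ML324 (0.0525). Depth limits Lgr5, Sp5 and Lef1, with as few as 0, 2 and 4 counts in a library.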
